A study of Mus musculus with 12 samples.

Results

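Major urinary proteins (MUPs) are small secreted lipocalins, barrel-shaped proteins that carry hydrophobic ligands. In the mouse they are made mainly by hepatocytes, pass from the blood into the urine, bind volatile pheromones there and act as scent signals themselves. Liver *Mup* transcription is known to depend on pulsatile growth hormone acting through STAT5B, and androgens, thyroid hormone and glucocorticoids modulate it, so that males express far more than females. The genes arose by repeated duplication and sit in one cluster beside a like number of pseudogenes.

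The 10 genes described here were the rows of the liver count table with the symbols *Mup1*, *Mup2*, *Mup3*, *Mup7*, *Mup10*, *Mup11*, *Mup17*, *Mup20*, *Mup21* and *Mup-ps13*. They were 10 of 49 *Mup* rows among the 54838 genes of the table. They had been chosen by their normalized counts in the zinc-Dex group of these same data, where the family was seen to be lower, so comparisons with that group are described without a test. The label did not hold for each of them. In zinc-Dex the mean of *Mup2*, *Mup10* and *Mup21* was above that of water-Dex, and the mice of *Mup1* and *Mup20* overlapped those of water-Dex.

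Livers came from 12 adult female C57BL/6J mice in 4 groups of 3. Drinking water was plain or held 25 mM ZnSO4 for 7 days, after which each mouse had PBS or 200 µg dexamethasone (Dex), a synthetic glucocorticoid, by the intraperitoneal route. Tissue was collected 2 h later. The groups were plain water and PBS (water-PBS, the control), zinc water and PBS (zinc-PBS), plain water and Dex (water-Dex) and zinc water and Dex (zinc-Dex). No group carried a transgene or a deletion. Each library held 9091152 to 12303527 counts. The 6 hepatocyte markers, among them *Alb* and *Apoa1*, summed to at least 1235406 normalized counts in each library, the 4 pancreas markers to at most 1.09, and the 3 gut epithelium markers to between 583 and 823. Most of that last sum was *Fabp2*, with 503 to 737, while *Vil1* had at most 25.3 and *Lgals4* at most 101. The Y-linked genes summed to at most 1 raw count and *Xist* had at least 4234 in each library. Levels below are normalized read counts, that is, counts divided by the library's size factor, and are given with the SD over 3 mice.

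The *Mup* rows lay on chromosome 4 of GRCm38 between 59956804 and 62150863, a span of 2194 kb, apart from 1 row, *Mup-ps22*, on chromosome 11. They comprised 22 protein-coding genes and 27 pseudogenes. *Mup7* (chr4:60066469-60070475), *Mup2* (chr4:60135932-60154289), *Mup1* (chr4:60498012-60501960), *Mup10* (chr4:60578260-60582199) and *Mup11* (chr4:60658466-60662411) lie in the first part of the cluster. *Mup17* (chr4:61591929-61595871), *Mup20* (chr4:62050234-62054158), *Mup3* (chr4:62083476-62087342) and *Mup21* (chr4:62147932-62150863) lie in its last part. These 9 are protein-coding and on the minus strand. *Mup-ps13* (chr4:61534230-61536973) is an unprocessed pseudogene on the plus strand. The annotation places no other gene over any of the 10.

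Because the copies are so alike, 5 promoters are shown, chosen to set near-identical sequences beside the different levels given further on. Each is the 250 bases before the RefSeq start on GRCm38.p6, minus strand, written 5′ to 3′. Capitals mark a TATA-box-like run, TATATAA. They also mark the core hexamer bound by the glucocorticoid receptor, AGAACA, which stands here as its reverse complement. *Mup3* (chr4:62087318-62087567) and *Mup21* (chr4:62150842-62151091) form one pair, and *Mup11* (chr4:60662396-60662645), *Mup17* (chr4:61595833-61596082) and *Mup2* (chr4:60139857-60140106) form a set from the other subfamily.
Mup3: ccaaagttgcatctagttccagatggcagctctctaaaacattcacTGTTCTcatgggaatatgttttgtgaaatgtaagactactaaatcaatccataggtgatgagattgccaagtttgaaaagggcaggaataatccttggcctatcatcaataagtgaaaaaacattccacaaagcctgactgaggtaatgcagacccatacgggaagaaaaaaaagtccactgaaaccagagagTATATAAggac
Mup21: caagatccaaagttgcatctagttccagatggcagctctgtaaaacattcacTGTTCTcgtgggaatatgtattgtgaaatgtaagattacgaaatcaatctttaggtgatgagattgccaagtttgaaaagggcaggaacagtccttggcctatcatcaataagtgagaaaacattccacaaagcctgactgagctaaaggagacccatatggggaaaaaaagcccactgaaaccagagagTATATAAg
Mup11: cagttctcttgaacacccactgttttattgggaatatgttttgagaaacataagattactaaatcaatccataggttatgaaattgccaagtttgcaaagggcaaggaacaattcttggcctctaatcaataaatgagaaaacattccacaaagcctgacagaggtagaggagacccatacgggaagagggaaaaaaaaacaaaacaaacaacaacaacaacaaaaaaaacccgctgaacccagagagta
Mup17: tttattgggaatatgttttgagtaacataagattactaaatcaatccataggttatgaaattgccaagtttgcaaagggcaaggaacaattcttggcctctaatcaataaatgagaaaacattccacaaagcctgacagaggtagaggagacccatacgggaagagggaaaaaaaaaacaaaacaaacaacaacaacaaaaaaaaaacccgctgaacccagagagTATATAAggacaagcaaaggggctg
Mup2: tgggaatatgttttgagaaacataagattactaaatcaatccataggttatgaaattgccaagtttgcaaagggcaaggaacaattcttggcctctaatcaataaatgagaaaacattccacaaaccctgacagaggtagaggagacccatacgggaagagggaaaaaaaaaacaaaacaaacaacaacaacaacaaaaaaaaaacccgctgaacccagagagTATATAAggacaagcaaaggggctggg

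RefSeq promoters were at hand for 7 of the 10 members, those of *Mup2*, *Mup3*, *Mup7*, *Mup10*, *Mup11*, *Mup17* and *Mup21*. The windows of *Mup11* and *Mup17* were identical at 99.6% of their aligned bases, those of *Mup2* and *Mup17* at 99.2%, and those of *Mup3* and *Mup21* at 93.4%. Across the subfamilies *Mup3* and *Mup11* matched at 86.5%. Annotated starts differ by some bases between copies, so the windows are offset against each other and that of *Mup11* ends within the TATA-like run. Motifs were sought on both strands in windows of the same length. AGAACA was found in *Mup3* and *Mup21* alone among the 7, and in 16.1% of all 32851 promoters. The windows of *Mup2*, *Mup10* and *Mup17* begin within or past the place where it stands in that pair. They could not show it there, so its absence from these copies is not known. At that place *Mup7* and *Mup11* read TGTTTT in place of TGTTCT. The full glucocorticoid response element (AGAACA, 3 free bases, and its reverse complement), the STAT5 motif TTCNNNGAA and the C/EBP motif TTGCGCAA matched 0 of the 7, beside 0.01%, 7.02% and 0.16% of all promoters. TATATAA, looked for after these sequences had been seen, was in 5 of 7 and in 3.04% of all promoters. The window of *Mup7* ends before the place where the run stands in the other copies, and that of *Mup11* within it. Its absence from *Mup7* and *Mup11* is therefore not known.

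The transcripts were alike too. Representative transcripts of *Mup1* and *Mup2* were identical at 99.6% of aligned bases and those of *Mup3* and *Mup21* at 96.3%, while the least alike pair, *Mup3* and *Mup11*, shared 82.0%. Since the authors left out reads that map to several places, a copy could gain counts only from stretches that are its own. Of all 75-base windows of the annotated transcripts, 94.6% for *Mup3* and 89.7% for *Mup21* were found in no other gene. The share was 61.6% for *Mup-ps13*, 56.4% for *Mup20*, 42.2% for *Mup1*, 31.3% for *Mup17*, 26.3% for *Mup11*, 25.7% for *Mup10*, 22.2% for *Mup2* and 18.9% for *Mup7*. *Mup3* and *Mup21* were thus largely countable, and levels of the other members are uncertain, those of *Mup7* and *Mup2* most. The windows come from annotated transcripts, and *Mup22*, with 0% of its windows its own, still had counts in each library.

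**Figure D1:**
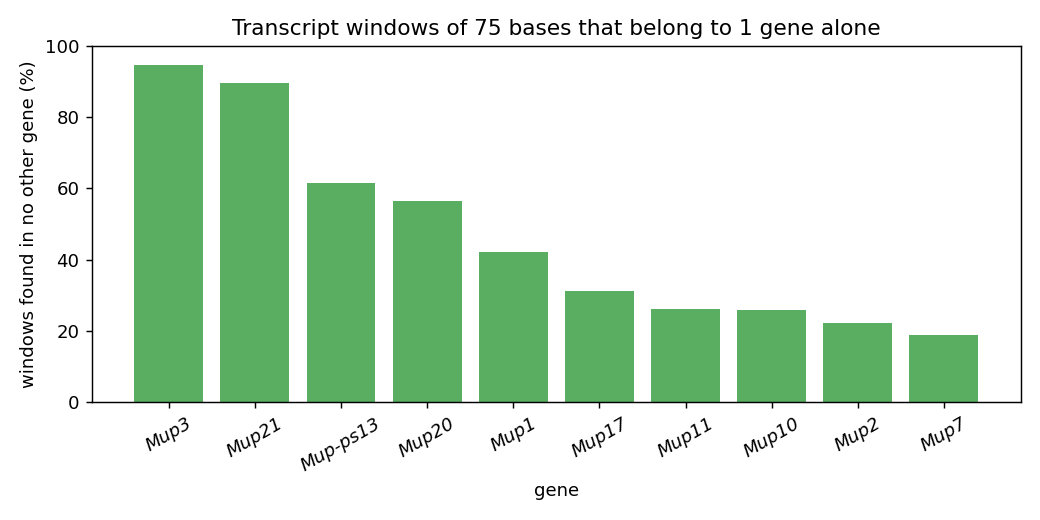
Share of 75-base transcript windows, in percent, that occur in no other annotated gene, with 1 bar per member. *Mup3* and *Mup21* stand at 94.6% and 89.7%, and *Mup7* is lowest at 18.9%.

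*Mup3* carried most of the signal. In water-PBS it had 25479 normalized counts per kb of exon, followed by *Mup-ps13* with 2310, *Mup17* with 1502, *Mup20* with 386, *Mup11* with 144 and *Mup21* with 94.0. *Mup1*, *Mup2*, *Mup10* and *Mup7* had 34.8, 32.5, 31.1 and 20.8 per kb. Neighbours in this order whose mice overlapped were *Mup-ps13* and *Mup17*, *Mup11* and *Mup21*, *Mup1* and *Mup2*, *Mup2* and *Mup10*, and *Mup10* and *Mup7*. *Mup10*, through its single high mouse, also overlapped *Mup1* and *Mup21*. Per 1000 windows that belong to 1 gene alone, *Mup17* with 5215 passed *Mup-ps13* with 4342, and *Mup1* was last with 82.3. *Mup3* made up 84.6% to 92.4% of the members' summed counts in each library, so the sum is chiefly a reading of *Mup3*.

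The sum of the 10 members was lowest in zinc-Dex. The 3 water-PBS mice had 29536, 26893 and 35595 normalized counts and the zinc-PBS mice 25394, 24763 and 24541. Among Dex-injected mice, those on plain water had 34286, 34767 and 29000 and those on zinc 15329, 22596 and 15210. The zinc-Dex livers all lay below the 9 others, and the zinc-PBS livers all lay below water-PBS and water-Dex, by little against the lowest of water-PBS. The means were 30674 ± 4461 in water-PBS, 24899 ± 442 in zinc-PBS, 32684 ± 3200 in water-Dex and 17712 ± 4230 in zinc-Dex (SD, n = 3). The zinc-Dex mean was 54.2% of water-Dex, 57.7% of water-PBS and 71.1% of zinc-PBS. No p is given for this sum. In whole liver, fewer hepatocytes and less *Mup* RNA per hepatocyte cannot be told apart. The hepatocyte markers summed to 1612983 to 1723528 in water-Dex and 1696959 to 1785685 in zinc-Dex. Without *Mup3*, the other 9 members summed to 3463 ± 975, 3043 ± 565, 3826 ± 297 and 1862 ± 139 in the same order of groups, and zinc-Dex lay at 48.7% of water-Dex.

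**Figure D2:**
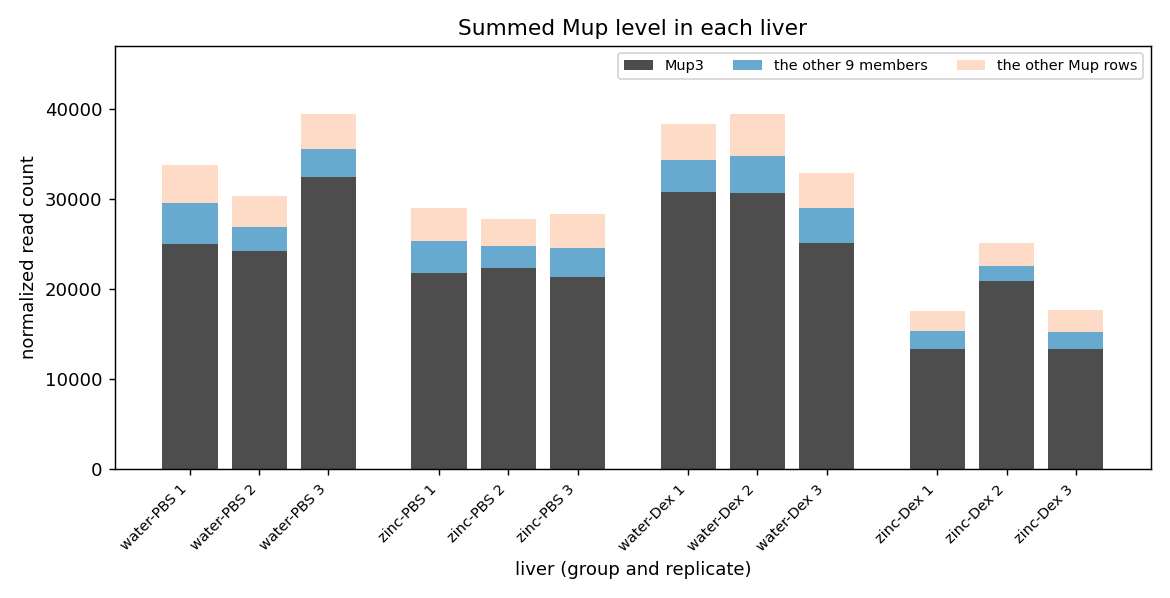
Normalized read counts summed over the *Mup* rows in each of the 12 livers, with 1 stacked bar per liver for *Mup3*, the other 9 members and the remaining *Mup* rows. *Mup3* fills most of each bar, and the members sum to 15210 to 22596 in zinc-Dex against 24541 to 35595 elsewhere.

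Zinc-Dex replicate 2 stood apart from the other two mice of its group, with 20874 normalized counts of *Mup3* against 13329 and 13346. Without it the sum in zinc-Dex was 46.7% of water-Dex, in place of 54.2%. The same mouse stood apart in genes that male and female livers express unequally. *Slco1a1*, a male-biased organic anion transporter, had 1565 normalized counts there against 217 and 222 in the other zinc-Dex mice, and 1519 to 3111 in water-Dex. *Sult2a1*, a female-biased sulfotransferase, had 1986 there against 7005 and 5955, and 1615 to 3438 in water-Dex. The female-biased list did not move one way in these mice. *Sult3a1*, another female-biased sulfotransferase, had 1906 in replicate 2 against 967 and 812, and 1756 to 2207 in water-Dex. In the 3 genes replicate 2 lay within the water-Dex range. They were named after their values were seen, and the part of this mouse's difference in the *Mup* result was not tested.

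*Mup3*, the member that can be counted almost in full, had 24984, 24224 and 32425 normalized counts in water-PBS and 21846, 22331 and 21391 in zinc-PBS. Levels were 30758, 30645 and 25171 in the water-Dex mice and 13329, 20874 and 13346 in the zinc-Dex mice. Again the 3 zinc-Dex mice lay below the 9 others, the highest of them just below the lowest zinc-PBS mouse. The log2 fold change of zinc-Dex was -0.86 (SE 0.17) against water-Dex, -0.78 (SE 0.17) against water-PBS and -0.46 (SE 0.17) against zinc-PBS. Without zinc-Dex replicate 2 the first of these was -1.11.

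*Mup21*, the closest relative of *Mup3* in promoter and transcript, had another pattern. Its levels were 63.0, 55.5 and 72.5 in water-PBS, 73.1, 50.7 and 47.1 in zinc-PBS, and 53.8, 85.1 and 61.3 in water-Dex against 69.5, 102 and 57.7 in zinc-Dex. All 4 groups overlapped, and the highest value was that of zinc-Dex replicate 2. Zinc-Dex was at 115% of water-Dex, with a log2 fold change of 0.19 (SE 0.27) that became -0.07 without replicate 2. The *Mup3* and *Mup21* pair thus gave different values for the same contrast from promoters that match at 93.4%. The difference between them was not tested.

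*Mup-ps13*, an inactivated copy of a *Mup* gene, had the lowest fitted dispersion of the 10, 0.0124. Its levels were 1426, 1046 and 1306 in water-PBS, 1541, 1346 and 1162 in zinc-PBS, and 1300, 1477 and 1518 in water-Dex against 612, 722 and 661 in zinc-Dex. Zinc-Dex did not overlap any other group, and the other 3 groups overlapped one another. Zinc-Dex was at 46.4% of water-Dex, 52.8% of water-PBS and 49.3% of zinc-PBS. Replicate 2 was the highest of the zinc-Dex mice here also, by a smaller margin than in *Mup3*.

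*Mup17* was among the most variable members. It had 2285, 1089 and 803 in water-PBS, 683, 415 and 1275 in zinc-PBS, and 1224, 1574 and 1643 in water-Dex against 709, 347 and 693 in zinc-Dex. The zinc-Dex mice lay below all water-PBS and water-Dex mice and overlapped zinc-PBS. Zinc-Dex was at 39.4% of water-Dex, with a log2 fold change of -1.34 (SE 0.52), and here replicate 2 was the lowest of its group.

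*Mup11* showed the lowest zinc-Dex level relative to water-Dex of the 10, at 24.3%. It had 312, 167 and 201 in water-PBS, 125, 85.7 and 200 in zinc-PBS, and 343, 371 and 133 in water-Dex against 89.1, 62.2 and 54.8 in zinc-Dex. The zinc-Dex mice lay below all water mice, and overlapped zinc-PBS by 1 mouse on each side. Its promoter matches those of *Mup17* and, at 99.5%, of *Mup2*.

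*Mup2* did not follow *Mup11* and *Mup17*. It had 39.9, 46.4 and 43.9 in water-PBS, 69.5, 50.7 and 47.1 in zinc-PBS, and 39.6, 30.8 and 43.5 in water-Dex against 56.5, 35.5 and 43.3 in zinc-Dex. Zinc-Dex overlapped each other group and was at 119% of water-Dex. As few as 22.2% of its windows were its own.

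*Mup1*, whose product circulates and has been studied in glucose metabolism, had 60.9, 48.2 and 56.0 in water-PBS, 41.5, 39.3 and 59.7 in zinc-PBS, and 68.0, 69.1 and 36.6 in water-Dex against 25.0, 38.9 and 26.9 in zinc-Dex. The zinc-Dex mice lay below both PBS groups and overlapped water-Dex through its replicate 3. The ratio to water-Dex was 52.2%. *Mup20*, which encodes the male pheromone darcin, had 332, 197 and 546 in water-PBS, 468, 430 and 331 in zinc-PBS, and 471, 468 and 370 in water-Dex against 419, 397 and 308 in zinc-Dex. All groups of *Mup20* overlapped, and zinc-Dex was at 85.8% of water-Dex.

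*Mup7* and *Mup10* were each set by single mice. *Mup7* had 29.4, 16.4 and 18.7 in water-PBS, and 26.4, 40.4 and 21.8 in water-Dex against 15.2, 12.2 and 15.4 in zinc-Dex. In zinc-PBS it had 475 in replicate 1, where 526 raw counts were recorded, against 10.5 and 20.8 in the other two. The highest zinc-PBS level was 45.3 times the lowest.
*Mup10* had 123 in water-PBS replicate 3 and 71.3 in zinc-PBS replicate 1, and between 1.98 and 8.15 in the 10 other mice. Its values span 39.0-fold within water-PBS and 20.4-fold within zinc-PBS. In raw counts *Mup10* had 2, 5 and 2 in water-Dex against 4, 5 and 4 in zinc-Dex, too few to compare. *Mup-ps3*, another row of the cluster, was likewise high in these same 2 mice, with 25 raw counts in water-PBS replicate 3 and 27 in zinc-PBS replicate 1. *Mup22* was high in zinc-PBS replicate 1 too, with 213 raw counts, and in water-Dex replicate 2, with 267, against 34 to 84 elsewhere.

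**Figure D3:**
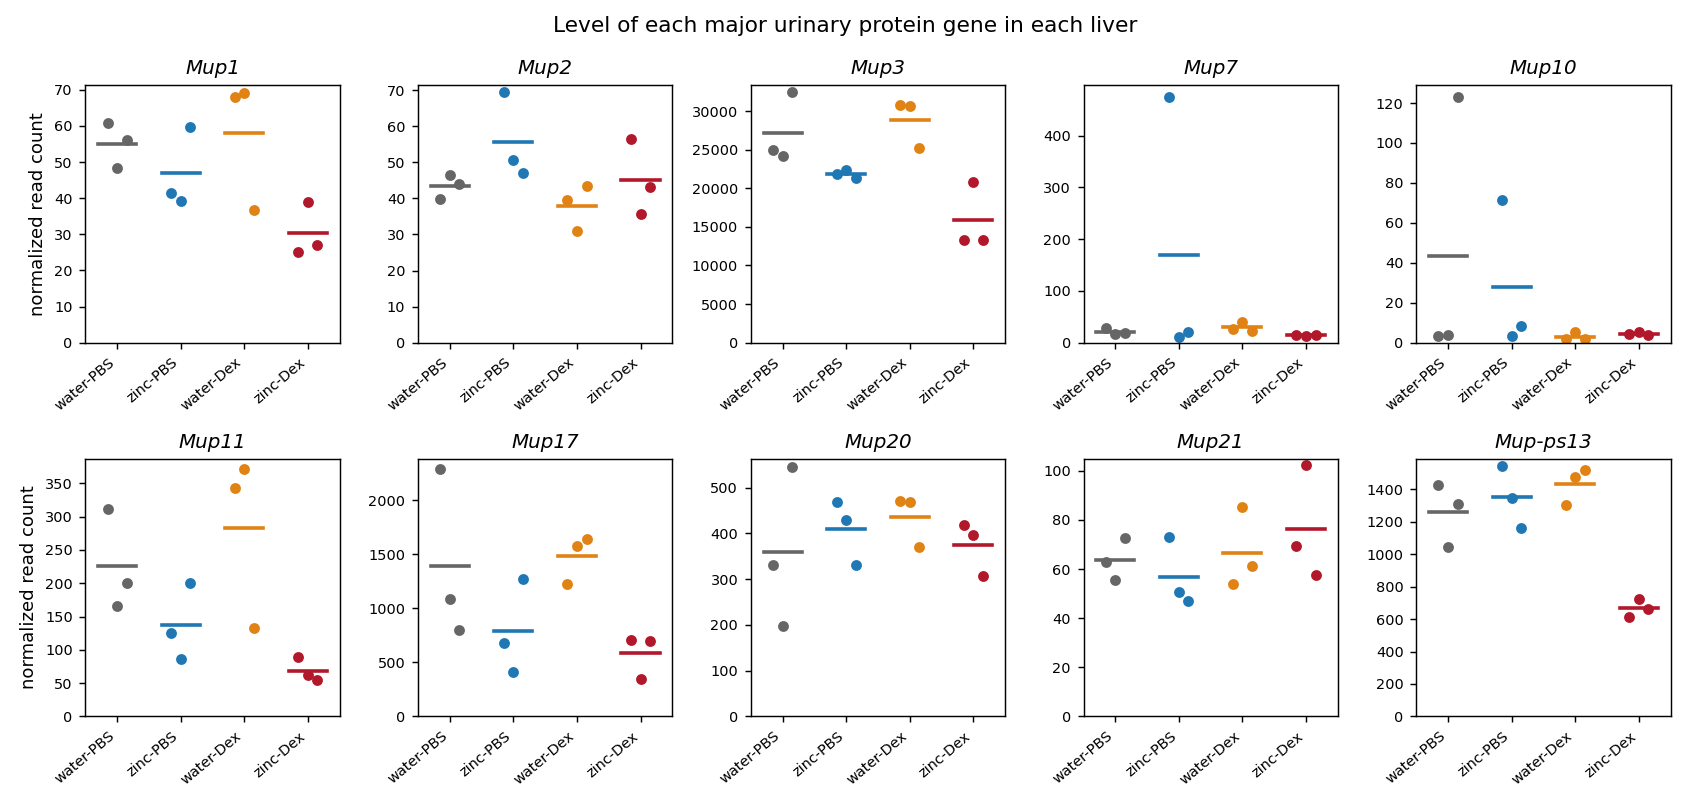
Normalized read count of each member in each liver, 1 panel per gene with its own linear axis from 0, points for the 3 mice of a group and a line at their mean. *Mup3* and *Mup-ps13* are lower in the 3 zinc-Dex mice than in the other 9, and *Mup7* and *Mup10* each show 1 or 2 mice far above the rest.

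Zinc alone was tested for the members, since no zinc-Dex mouse is compared here, although those livers enter the size factors and dispersions of the fit. DESeq2 called 0 of the 10 lower and 0 higher, where 0.0585% and 0.0836% of all genes tested were called. A fit of the 6 PBS livers only also called 0. Calls needed a Benjamini-Hochberg adjusted p under 0.05 and a log2 fold change beyond 0.8. Of the 8 members given a p, 0 had an unadjusted p under 0.05, and edgeR also called 0. In the fit of 6 livers 2 of 8 did, *Mup3* (log2 fold change -0.32, SE 0.12, DESeq2 adjusted p = 0.56) and *Mup11* (-0.72, SE 0.27, adjusted p = 0.54). *Mup7* and *Mup10* received no p because single mice dominated them. *Mup3* was lowest in p, with a log2 fold change of -0.32 (95% interval -0.64 to 0.0092, DESeq2 adjusted p = 0.86). Its zinc-PBS mice all lay below water-PBS, which was so for 6.07% of genes tested, and those of *Mup2* all lay above, which was so for 5.89% of genes. *Mup17* and *Mup11* had the lowest log2 fold changes, -0.82 (95% interval -1.83 to 0.20) and -0.72 (-1.63 to 0.19), and both intervals reach well beyond the threshold of 0.8. The median over the 10 members was -0.19, beside -0.00075 over all genes tested, and 6 of 10 were below 0.

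Dex alone, tested in mice on plain water, gave 0 members called lower and 0 higher, beside 4.86% and 4.93% of all genes tested. Again 0 of 8 had an unadjusted p under 0.05, and edgeR called 0. In a fit of only the 6 plain-water livers 0 of 9 did and 0 were called. *Mup3* had a log2 fold change of 0.08 (95% interval -0.24 to 0.41, DESeq2 adjusted p = 0.79), so a change past 0.8 at 2 h lies outside the interval. *Mup-ps13* had 0.19 (-0.08 to 0.45) and *Mup20* had 0.29 (-0.23 to 0.80). The median of the members was 0.09, beside -0.01 over all genes tested, and 2 of 10 were below 0. *Mup10* is one of these 2, and it was called lower, with a log2 fold change of -3.80, once the filter on outlying counts was left off and its single high water-PBS mouse counted in full.

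Zinc-Dex against water-Dex is described only, as this group chose the members. Here 7 of 10 log2 fold changes were below 0, with a median of -0.90 beside 0.0021 over all genes tested. The 3 zinc-Dex mice lay below the 3 water-Dex mice in 5 of 10 members, namely *Mup3*, *Mup7*, *Mup11*, *Mup17* and *Mup-ps13*, beside 9.90% of all genes. Against water-PBS this was so for 6 of 10, with *Mup1* added, beside 19.5%. Against zinc-PBS it was so for 3 of 10, *Mup1*, *Mup3* and *Mup-ps13*, beside 18.7%. The comparisons share the zinc-Dex mice.

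**Figure D4:**
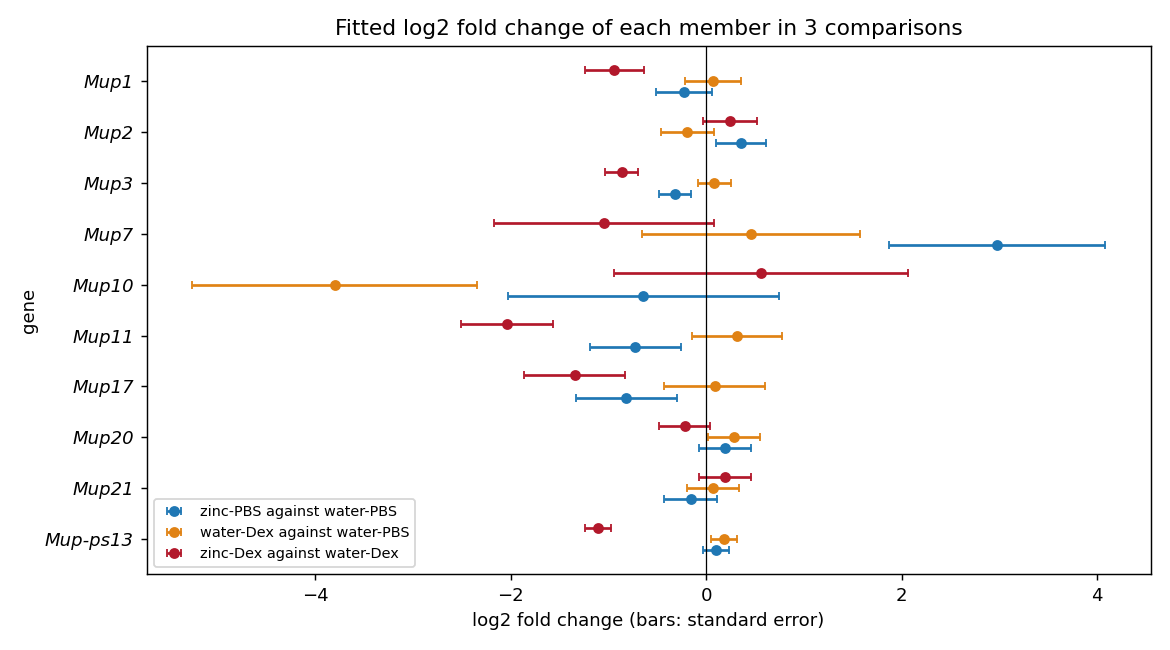
Log2 fold change of each member fitted by DESeq2 (points) with its standard error (bars) for zinc-PBS and water-Dex, each against water-PBS, and for zinc-Dex against water-Dex. Zinc-Dex points of *Mup11* and *Mup17* lie furthest below 0 at -2.04 and -1.34, those of *Mup2* and *Mup21* just above 0, and the bars of *Mup7* and *Mup10* are the widest.

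The other 39 *Mup* rows were mostly silent or low. Among them, 6 had 0 counts in each library and 14 reached a mean of 10 normalized counts. Of these 14, 12 had a lower mean in zinc-Dex than in water-Dex, beside 49.5% of all genes tested. In 9 the 3 zinc-Dex mice lay below the 3 water-Dex mice, beside 9.90%. The share of 75-base windows found in no other gene ran from 0% for *Mup15* and *Mup22* to 100% for *Mup6* and *Mup-ps22*. It was 11.5% for *Mup13* and 12.5% for *Mup18*. Rows that share sequence are not separate readings. *Mup6*, the most abundant of the 14 within the cluster, had 1245 ± 131 normalized counts in water-PBS, 1076 ± 132 in zinc-PBS, 1354 ± 151 in water-Dex and 743 ± 70.4 in zinc-Dex. *Mup18* had 278 ± 70.8, 227 ± 62.1, 330 ± 43.6 and 151 ± 19.3 in the same order, and *Mup13* had 96.9 ± 18.2, 83.1 ± 3.97, 101 ± 12.1 and 53.2 ± 3.01. The 3 genes were each lowest in zinc-Dex. *Mup9* (49.0 ± 3.05 in water-Dex and 23.2 ± 9.53 in zinc-Dex), *Mup-ps18* (23.7 ± 4.04 and 12.1 ± 3.35), *Mup14* (22.2 ± 8.85 and 7.31 ± 1.60) and *Mup15* (13.6 ± 1.40 and 5.17 ± 1.35) were low and did not overlap either. *Mup12* (21.9 ± 6.13 and 12.0 ± 4.70) and *Mup5* (13.2 ± 2.60 and 10.3 ± 3.60) overlapped. *Mup16* differed less, with 429 ± 47.8 in water-Dex and 321 ± 75.8 in zinc-Dex, and its groups overlapped. The pseudogenes *Mup-ps12* and *Mup-ps14* were the 2 of the 14 with a higher zinc-Dex mean. *Mup-ps14* had 4.06, 6.38 and 12.9 in water-Dex against 29.3, 11.1 and 24.0 in zinc-Dex, with 24.2, 13.7 and 24.2 in water-PBS. *Mup-ps12* had 22.3, 38.3 and 59.4 in water-Dex against 81.5, 25.5 and 84.6 in zinc-Dex. In both pseudogenes zinc-Dex replicate 2 was the lowest of its group and overlapped water-Dex. A further 15 rows had means of 1.30 to 8.19 normalized counts, too few to compare. They were *Mup4*, *Mup19*, *Mup-ps1*, *Mup-ps2*, *Mup-ps3*, *Mup-ps4*, *Mup-ps6*, *Mup-ps7*, *Mup-ps8*, *Mup-ps10*, *Mup-ps15*, *Mup-ps16*, *Mup-ps19*, *Mup-ps20* and *Mup-ps21*, and 4 of the 15 had a lower mean in zinc-Dex than in water-Dex.

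*Mup-ps22* was the family row outside the cluster. It is a processed pseudogene of 243 bases on chromosome 11 (chr11:55123695-55123937), with all of its 75-base windows found in no other gene and 90.1% identity to *Mup20* and 88.9% to *Mup3*. It had 1541, 1389 and 1496 in water-PBS, 1338, 1256 and 1505 in zinc-PBS, and 1737, 1677 and 1388 in water-Dex against 810, 1018 and 940 in zinc-Dex. The zinc-Dex mice again lay below the 9 others. Within the cluster, lower zinc-Dex means came from both ends, and genes with higher means were not grouped in one place.

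**Figure D5:**
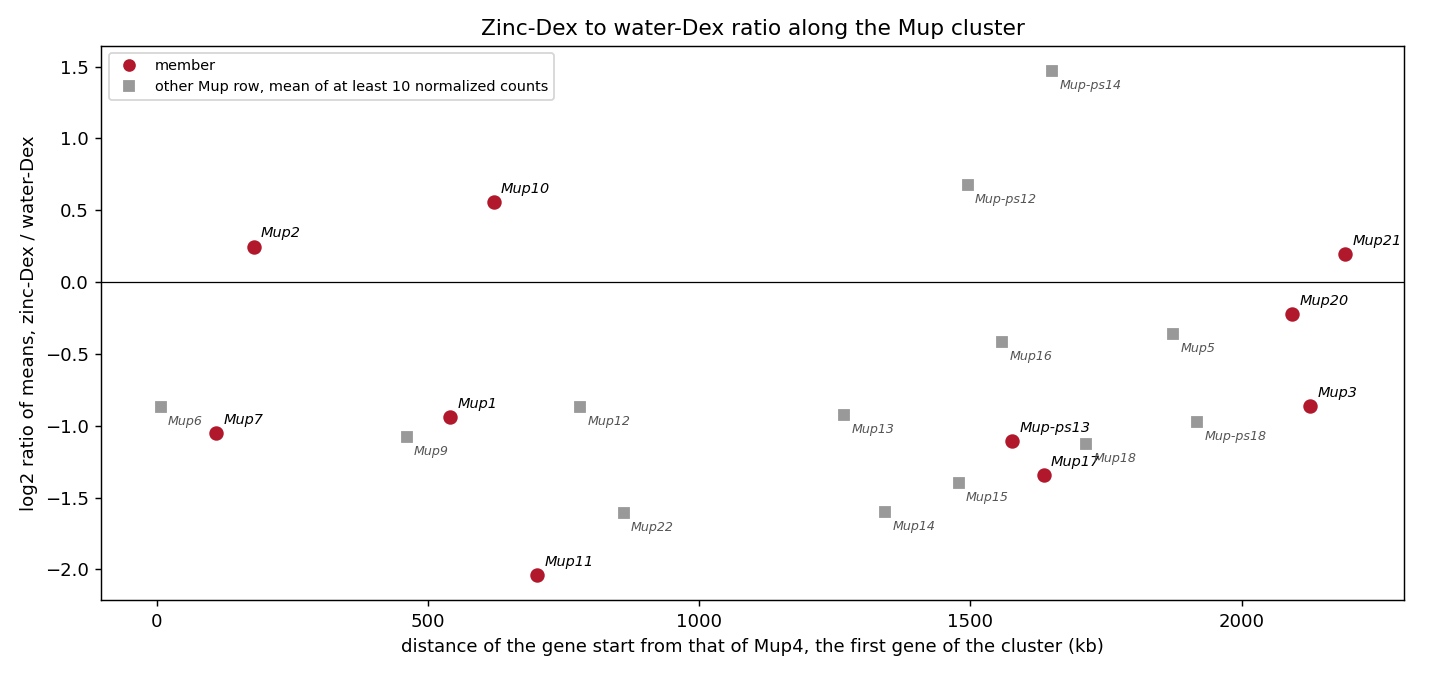
Log2 ratio of the zinc-Dex to the water-Dex mean for each *Mup* row of chromosome 4 that is a member (circles) or reaches a mean of 10 normalized counts (squares), against the distance of its start from that of *Mup4* in kb. Most points lie below 0 along the whole cluster of 2194 kb, and *Mup2*, *Mup10*, *Mup21*, *Mup-ps12* and *Mup-ps14* lie above.

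A list of 25 genes, called regulators here, covered the growth hormone receptor pathway, nuclear receptors and hepatocyte transcription factors. It also held genes induced by that pathway, *Igf1*, *Igfals*, *Socs2*, *Socs3* and *Cish*, so not each listed gene acts on *Mup* transcription. Of the 25, 0 were called in either direction in zinc-Dex against water-Dex, where 0.168% of all genes were called lower and 0.305% higher. *Stat5b*, which carries the growth hormone signal to the nucleus, had 981 ± 50.9 in water-PBS, 891 ± 146 in zinc-PBS, 966 ± 92.6 in water-Dex and 973 ± 198 in zinc-Dex. *Ghr*, the growth hormone receptor, had 5435 ± 288, 5877 ± 1000, 5626 ± 182 and 5932 ± 263. *Hnf4a*, a nuclear receptor that maintains hepatocyte identity, had 8318 ± 1184, 8781 ± 758, 10082 ± 862 and 10168 ± 875. None of these 3 was called in any of the 5 comparisons. *Stat5a*, the close relative of *Stat5b*, was named after its values were seen. It had 182 ± 28.5, 191 ± 25.8, 110 ± 27.1 and 74.8 ± 6.24, and was called lower in zinc-Dex against water-PBS, by a DESeq2 log2 fold change of -1.28 (SE 0.20, adjusted p = 7.4e-09), and against zinc-PBS, by -1.35 (SE 0.20, adjusted p = 7.6e-10). Its log2 fold change was -0.72 with Dex alone (adjusted p = 0.0020), short of the threshold, and -0.56 in zinc-Dex against water-Dex (adjusted p = 0.21). *Nr3c1*, the glucocorticoid receptor, had 1242 ± 44.5, 1281 ± 74.7, 1005 ± 23.1 and 867 ± 46.7. Its log2 fold change with Dex was -0.31 (DESeq2 adjusted p = 0.00094), short of the 0.8 threshold. *Zhx2*, a transcription factor of liver, had 147 ± 16.4, 116 ± 6.92, 107 ± 19.0 and 83.7 ± 15.5, and was called lower in zinc-Dex against water-PBS (log2 fold change -0.82, DESeq2 adjusted p = 0.00013).

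With Dex alone, 6 of these 25 regulators were called lower and 3 higher, beside 4.86% and 4.93% of all genes tested. In zinc-Dex against water-PBS 8 were called lower and 3 higher, beside 5.50% and 5.47%, and against zinc-PBS 7 and 2, beside 4.71% and 5.04%. *Cebpa*, a hepatocyte differentiation factor, fell with a log2 fold change of -0.89 (SE 0.14, DESeq2 adjusted p = 1.5e-09), and *Foxa2*, a pioneer factor, with -1.35 (SE 0.27, adjusted p = 1.2e-05). *Socs3* and *Cish*, feedback inhibitors that STAT5 induces, were named after their values were seen. *Socs3* had 105 ± 26.7 in water-PBS and 15.5 ± 5.95 in water-Dex (adjusted p = 0.0018), and *Cish* 159 ± 106 and 44.2 ± 20.7 (adjusted p = 0.022). In zinc-PBS they had 310 ± 340 and 282 ± 107, and in zinc-Dex 16.9 ± 4.59 and 35.4 ± 25.1, close to water-Dex. The other listed genes induced by the growth hormone receptor pathway were not called with Dex alone. *Socs2* had a log2 fold change of -0.42 (DESeq2 adjusted p = 0.63) and *Igf1* of -0.17 (adjusted p = 0.59). That of *Igfals* was -0.55 (adjusted p = 0.028), short of the threshold. *Cebpb*, a stress-responsive relative of *Cebpa*, rose by 2.13 (SE 0.21, adjusted p = 2.8e-23). *Bcl6*, a repressor that binds STAT5 sites, rose by 1.90 (SE 0.70, adjusted p = 0.034), and *Cux2*, a female-biased repressor, rose from 243 ± 19.5 to 486 ± 140 (adjusted p = 0.021). Both calls were lost without single mice. *Bcl6* had adjusted p = 0.15 or 0.11 when water-PBS replicate 2 or 3 was left out, and 0.21 or 0.13 when the same was done with replicate 2 or 3 of water-Dex. *Cux2* had adjusted p = 0.052, 0.11 or 0.073 when replicate 1, 2 or 3 of water-PBS was dropped, and 0.11 when water-Dex replicate 1 was. Zinc alone raised *Foxa3*, another pioneer factor, with a log2 fold change of 0.88 (SE 0.14, adjusted p = 1.1e-06), from 464 ± 14.4 to 856 ± 184, and called 0 others of the 25, beside 0.0836% of all genes called higher. That value fell to 0.79 without zinc-PBS replicate 1 or replicate 3, under the threshold.

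The other lists were of liver genes that differ between the sexes, as *Mup* genes do. Of 17 male-biased genes, 14 had an adjusted p in zinc-Dex against water-Dex and 0 were called, where 0.168% of all genes were called lower and 0.305% higher. The median log2 fold change of the 14 was -0.39, beside 0.0021 over all genes tested. Without zinc-Dex replicate 2, 5 were called lower, *Slco1a1*, *Hsd3b5*, *Elovl3*, *C8a* and *Selenbp2*, beside 0.373% of all genes tested in that fit, up from 0.168%. *Hsd3b5*, a steroid dehydrogenase, had 48.7, 42.5 and 22.8 in water-Dex against 1.09, 31.1 and 1.92 in zinc-Dex. *Elovl3*, a fatty acid elongase, had 152, 184 and 118 in water-Dex against 55.4, 144 and 48.1 in zinc-Dex. In both, replicate 2 again lay within the water-Dex range. With Dex alone 1 of the 17 was called, *Cyp2u1*, lower by a log2 fold change of -1.87 (SE 0.41, DESeq2 adjusted p = 6.4e-05), beside 4.86% of all genes called lower. Zinc alone called 0.

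Of 20 female-biased genes, 1 was called lower and 1 higher in zinc-Dex against water-Dex, beside 0.168% and 0.305% of all genes tested. *Sult3a2*, a sulfotransferase with a close paralog, fell with a log2 fold change of -1.41 (DESeq2 adjusted p = 0.039), and *Atp6v0d2*, a proton pump subunit, rose by 1.22 (SE 0.21, adjusted p = 1.7e-05). The call of *Sult3a2* was lost in edgeR, and also without replicate 1 or 2 of water-Dex or replicate 1 or 3 of zinc-Dex. *Cyp17a1*, a steroid hydroxylase, had 1380 ± 131 in water-Dex and 2848 ± 1287 in zinc-Dex with adjusted p = 0.093, and was called without zinc-Dex replicate 2. In that fit 3 of the 20 were called higher, *Cyp17a1*, *Sult2a1* and *Atp6v0d2*, and 2 lower, *Sult3a1* (log2 fold change -1.17, SE 0.19, adjusted p = 3.8e-07) and *Sult3a2* (-2.06, SE 0.41, adjusted p = 0.00015), beside 0.524% and 0.373% of all genes. *A1bg*, a female-biased plasma protein, had 1081 ± 170 in water-Dex and 490 ± 339 in zinc-Dex and was not called between them. Against water-PBS, where it had 2036 ± 1011, it was called lower in zinc-Dex (log2 fold change -2.06, SE 0.61, DESeq2 adjusted p = 0.0050). In that comparison 1 of the 20 was called lower and 3 higher, beside 5.50% and 5.47% of all genes. With Dex alone, *Tox*, a nuclear factor, rose by 0.97 (SE 0.20, adjusted p = 3.2e-05), and *Acot3*, a thioesterase, fell with -1.94 (SE 0.43, adjusted p = 7.5e-05), where 4.93% of all genes were called higher and 4.86% lower. Zinc alone called 0 of the 20.

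Other lipocalins were a list of 12. In zinc-Dex against water-Dex 0 of the 9 with an adjusted p were called, and zinc alone called 0. Dex alone called 2 higher, beside 4.93% of all genes. It raised *Lcn2*, which binds bacterial siderophores, from 77.3 ± 23.8 to 1762 ± 467, with a log2 fold change of 4.51 (SE 0.57, DESeq2 adjusted p = 1.0e-13). It also raised *Orm3*, an acute phase orosomucoid, by 1.45 (SE 0.43, adjusted p = 0.0052), a call lost without water-PBS replicate 3 or without water-Dex replicate 3, with adjusted p = 0.052 and 0.066. *Lcn2* had 2460 ± 453 in zinc-Dex, so this lipocalin was high in both Dex groups, where the *Mup* members differed.

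Outside the family, the genes whose log2 level most resembled the summed *Mup* level over the 12 livers were sought among the 9554 genes whose mean reached 50 normalized counts. *Tmem199* was most alike, with Pearson r = 0.92 and Spearman rho = 0.94, and had 96.4 ± 9.35 in water-PBS, 76.9 ± 2.25 in zinc-PBS, 93.0 ± 2.41 in water-Dex and 59.8 ± 2.32 in zinc-Dex. *Sult3a2*, *Ahsa2*, *Anapc11* and *Txndc15* followed, each at r = 0.87. The first of these ranked 84 by Spearman's rho and the others 63, 25 and 37. Once group means were taken out, *Tmem199* ranked 543, so that its likeness lay between the groups more than among mice of 1 group. These correlations are a description over livers that share their groups, with no p.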

How the data were processed

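Single-end stranded TruSeq libraries of total liver RNA had been sequenced. The authors trimmed reads with Trimmomatic, mapped them to mm10 with HISAT2 2.0.4 and counted them per Ensembl gene with featureCounts without multimapping reads. The deposited table holds these raw counts. The annotation release and strand setting are not given in the sources used here. Total counts were 9091152 to 12303527 per library.

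The members, gene lists and tests were chosen with earlier results of these data known. Differential expression used DESeq2 1.42.0 (R 4.3.3), 1 fit of 12 libraries, Wald tests, Benjamini-Hochberg adjustment over all genes, with independent filtering set for an adjusted p of 0.05 and the Cook's distance filter, which left *Mup7* and *Mup10* without a p. Mice were separate samples of a group in the labels. With 3 against 3, an exact permutation test cannot go below 0.10, so none was used. Alternatives were edgeR 4.0.16 (quasi-likelihood), TMM factors, CPM, a filter of at least 10 counts in 3 libraries (13255 genes), no independent filtering, no Cook's filter, no fold threshold, only the 6 libraries compared, a replicate term and leaving out each library. The models were tested on simulated data.

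Of 54838 gene identifiers, 54723 had a symbol in GENCODE M21 (GRCm38), which gave coordinates, exon length and transcript windows of 75 bases. Windows were sought in annotated transcripts, not in the genome, so introns and unannotated copies are not covered. Promoters came from RefSeq. Identity was computed with Biopython 1.88. The text names all members, other *Mup* rows whose mean reached 1 normalized count, up to 6 called genes of each list with the highest mean, *Stat5b*, *Ghr*, *Nr3c1*, *Zhx2* and *Hnf4a*, and the 5 genes most alike to the *Mup* sum. Genes called only without zinc-Dex replicate 2 were picked from their values. The result of 1 gene of this rule is left out here.

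Markers of further cell types, summed per list, had 3714 to 5275 normalized counts per library for Kupffer cells, 2303 to 2845 for endothelial cells, 3177 to 4215 for stellate cells, 61.7 to 147 for cholangiocytes, 657 to 1929 for red blood cells and 153 to 258 for lymphocytes.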

Additional observations from a re-analysis of the deposited data

Results flagged for a closer look

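*Cyp7b1*, a male-biased hydroxylase of oxysterols, was the one gene of the lists in which each zinc-PBS mouse lay above the water-PBS mean and each zinc-Dex mouse below the water-Dex mean. It had a mean of 255 normalized counts in water-PBS, 284 in zinc-PBS, 264 in water-Dex and 204 in zinc-Dex. The difference between the log2 ratios of zinc to water under Dex and under PBS was -0.53, and the DESeq2 interaction gave an adjusted p of 1, so the difference did not pass the test.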

How the results depend on the processing

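No result changed direction with its call. The count of members called lower with Dex alone was 1 without the Cook's distance filter, and 0 to 1 when each library was left out in turn. That gene was *Mup10*, called without water-PBS replicate 1 or replicate 2. *Mup7* in zinc-PBS against water-PBS had a log2 ratio of means of -0.55 once zinc-PBS replicate 1 and water-PBS replicate 3 were left out, an alternative chosen after seeing the data, beside a fitted 2.97 with all mice. With no fold change threshold, Dex alone gave 6 regulators higher, 2 male-biased genes lower and 1 higher, and 3 female-biased genes lower. edgeR gave 1 male-biased gene higher with Dex alone, as did a fit of only the 6 libraries, and 0 female-biased genes lower in zinc-Dex against water-Dex, as did the fit with no independent filtering. Leaving out each library in turn, regulators called higher ranged from 0 to 1 with zinc alone and from 1 to 4 with Dex alone, male-biased genes called lower from 1 to 2 with Dex alone and from 0 to 5 in zinc-Dex against water-Dex (5 without zinc-Dex replicate 2), female-biased genes called higher from 1 to 2 with Dex alone, in zinc-Dex against water-Dex lower from 0 to 2 and higher from 1 to 3, and lipocalins called higher with Dex alone from 1 to 2. The 6 regulators called lower with Dex alone became 4 to 6 when each library was left out in turn. They were 4 with the replicate number as a block and 9 with no fold change threshold. Why these counts moved was not tested. The summed *Mup* level in zinc-Dex was 57.7% of water-PBS with size factors and 48.7% in CPM. In water-Dex it was 107% of water-PBS with size factors and 92.8% in CPM, so the side on which this untested sum lay depended on the scaling. The labels number the replicates 1 to 3 in each group. Deviations of same-numbered mice correlated at -0.20 to 0.19, which shows no clear pairing by number but cannot exclude one. With the replicate number as a block, 2 female-biased genes were called higher in zinc-Dex against water-Dex in place of 1. At 9091152 to 12303527 counts per library, *Mup10* and the low pseudogenes had too few counts to compare.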
